A study of Homo sapiens with 9 samples.

Results

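RNA editing marks in the 5′ untranslated region (5′ UTR) of messenger RNAs were described for 61 protein-coding genes, of 1348 protein-coding genes listed for either of 2 RNA-binding fusion proteins in 293T cells. A gene was taken when its summed count of 5′ UTR editing sites was 1 or more with either fusion and its coding, 3′ UTR and stop-codon counts were 0 or absent with both. The genes were thus chosen by their site counts, so the 5′ UTR counts and the absence of other exonic sites are given as a description.

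ADAR-SUGP1 and GPATCH8-ADAR join a splicing protein to an overactive fly adenosine deaminase (its catalytic domain only), which converts adenosine to inosine near the RNA its partner touches (TRIBE-seq). The ADAR-SUGP1 fusion was sequenced in run 2 and GPATCH8-ADAR in run 1, with 2 libraries each, beside 2 control libraries per run, from a non-targeting MCP fusion, and 1 library of untransfected cells in run 2. All were 293T, an SV40 T antigen-bearing line derived from human embryonic kidney, labelled as wild type for SF3B1; fusions came from transiently transfected plasmids, and living GFP-positive cells were sorted after 24 h. Each fusion has 1 pooled list of sites kept in both libraries after control and endogenous sites were removed, so no value has a replicate error and neither read depth nor expression of cell markers can be read from the tables. Run and fusion cannot be told apart.

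The 5′ UTR lies between the cap and the start codon. The small ribosomal subunit scans it, and upstream open reading frames or structure within it set how much protein is made. SUGP1 and GPATCH8 carry G-patch domains, short modules through which proteins engage DEAH-box RNA helicases, and SUGP1 works with the branchpoint factor SF3B1 in the nucleus.

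The tables give no positions of sites, so no edited base can be shown. The 30 bases just upstream of the outermost RefSeq start (GRCh38.p14) are shown for genes with more than 1 site or with a GPATCH8-ADAR site. Genes without such a RefSeq entry are left out. By that annotation the stretch lies just before the 5′ UTR. Whether it is transcribed in a listed transcript, or holds a site, cannot be told. Capitals mark adenosines, shown for base composition only. The RefSeq start may differ from that of the listed transcript. The first 4 genes had several sites with ADAR-SUGP1 and the other 6 had 1 site with GPATCH8-ADAR.
TMEM9, chr1:201171559-201171588, minus strand: ctctgctccctccctgctAggctctgtccc
CERCAM, chr9:128419130-128419159, plus strand: ggcAtctctccAgAAtgcttctcAttgcAg
UNC119, chr17:28552629-28552658, minus strand: gccccggccgggggcggggctgcggAtgct
AGAP6, chr10:49988338-49988367, plus strand: ctgggctcccAcctggggccAgtgggcttc
MTA1, chr14:105419797-105419826, plus strand: gcccctccccgccgcccgcggccgctcctc
NBPF1, chr1:16613565-16613594, minus strand: cccAtcgggAtcctgAggAgccAgtgggct
NFATC2IP, chr16:28950907-28950936, plus strand: gAgttgctgAcgAgcAggctgtttgtccAA
NOSIP, chr19:49580557-49580586, minus strand: gAAAAtAgtgctcctttccggtgtcggggc
SSH2, chr17:29930229-29930258, minus strand: AcAggtggcgcctgcgcActgggAgcgctc
ZNF398, chr7:149126378-149126407, plus strand: ccccctgcgggcgggAggAgcggcgccgcc

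These stretches ranged in adenosine content from 0 in MTA1 and 1 in TMEM9 and UNC119 to 6 in CERCAM and NFATC2IP. Their G + C share was 90.0% in MTA1 and ZNF398 and lowest in CERCAM.

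ADAR-SUGP1 marked the 5′ UTR of 53 of the 61 genes with 61 sites, and GPATCH8-ADAR marked the other 8 with 8 sites. No gene had a 5′ UTR site with both fusions. Among all listed protein-coding genes, 5.73% of the 995 on the ADAR-SUGP1 list and 1.81% of the 498 on the GPATCH8-ADAR list held a 5′ UTR site, and 4.90% of the genes on either list did. These shares include the genes chosen, so nothing is read from the comparison.

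Few genes carried more than 1 mark. TMEM9, a transmembrane protein of late endosomes and lysosomes, had 4 sites with ADAR-SUGP1, all in ENST00000367330.1. CERCAM, known as a cerebral endothelial cell adhesion molecule, had 3 in ENST00000372842.1. UNC119, a chaperone that carries lipid-modified proteins between membranes, had 3 in ENST00000484980.1. AGAP6, a member of a family of Arf GTPase-activating proteins with near-identical copies, had 2, beside 1 intronic site in the same transcript, ENST00000374056.4. These 4 genes held 12 of the 61 sites with ADAR-SUGP1 (19.7%), and the other 49 genes had 1 site each. Over the 53 genes the counts averaged 1.15 ± 0.568 (SD). Reads from AGAP6 can be shared with its copies, so its counts are uncertain. Each of the 8 genes with a GPATCH8-ADAR site had 1.

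The 8 genes with a 5′ UTR site with GPATCH8-ADAR had varied roles. CTTN, an actin-binding protein of the cell cortex, had its site in ENST00000498223.1 and 3 intronic sites in another listed transcript, ENST00000346329.3. MTA1, a subunit of the NuRD chromatin-remodelling complex, had 1 site in the 5′ UTR of ENST00000426567.1 and 1 in an intron of ENST00000331320.7. NFATC2IP, a SUMO-like domain protein that binds the transcription factor NFATC2, likewise had 1 in the 5′ UTR of ENST00000568148.1 and 1 in an intron of ENST00000564978.1. In these 3 genes the 5′ UTR site and the intronic sites were thus assigned to different transcripts of the gene. ITGB2 (the beta chain of leukocyte integrins), NBPF1 (of a family with many near-identical copies), NOSIP (an E3 ubiquitin ligase that binds nitric oxide synthase), SSH2 (a phosphatase that activates cofilin) and the zinc finger gene ZNF398 had the 5′ UTR site alone. The count of NBPF1 is uncertain for the same reason as that of AGAP6.

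Of the 61 genes, 2 were on both lists (3.28%), against 10.8% of all 1348. The rule removes genes with another exonic site on either list, so part of this gap can follow from the rule. With stop-codon sites allowed, 4 genes were on both lists. CTTN had 2 intronic sites with ADAR-SUGP1 beside its 4 sites with GPATCH8-ADAR. PILRB, an activating receptor of immune cells, had 1 site in the 5′ UTR with ADAR-SUGP1 and 1 intronic site with GPATCH8-ADAR. In neither gene did both fusions mark the same region apart from the introns of CTTN.

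**Figure D1:**
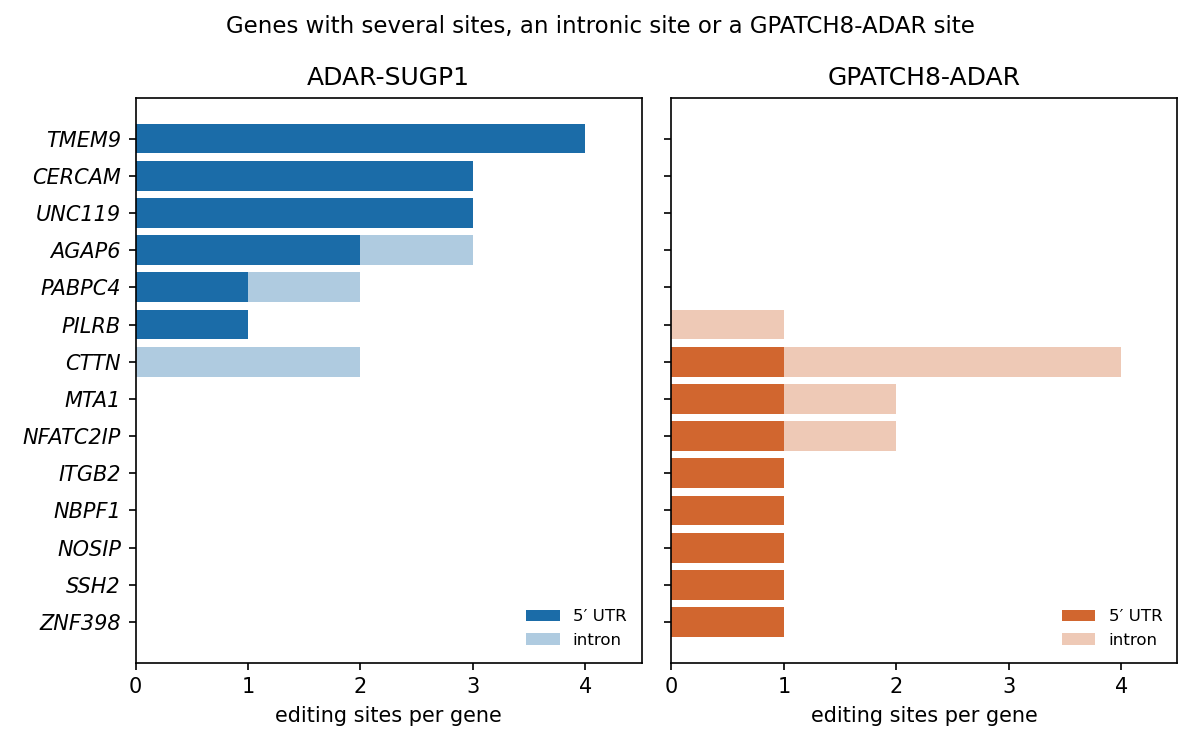
Editing sites per gene (horizontal axis) with ADAR-SUGP1 (left panel) and GPATCH8-ADAR (right panel) for the 14 genes with several 5′ UTR sites, an intronic site or a GPATCH8-ADAR site. Dark bars are 5′ UTR sites and pale bars intronic sites; TMEM9 reaches 4 sites with ADAR-SUGP1, and only CTTN and PILRB have bars in both panels.

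Intronic sites were found in 6 of the 61 genes (9.84%), with 10 sites in all, whereas 66.1% of all listed genes had one. The share was also low at 17 of 143 genes with a coding site (11.9%) and 26 of 261 with a 3′ UTR site (9.96%). Those 2 classes keep their genes with stop-codon sites, which the rule removed from the 61. Among genes with a stop-codon site, 77 of 160 had an intronic site (48.1%). Of all 66 genes with a 5′ UTR site, 10 had one (15.2%). The 6 among the 61 were AGAP6, CTTN, MTA1, NFATC2IP, PABPC4 and PILRB. PABPC4, a cytoplasmic poly(A)-binding protein, had 1 site in the 5′ UTR of ENST00000372858.3 and 1 in an intron of ENST00000437136.1, both with ADAR-SUGP1. A gene without a 5′ UTR site must usually hold a site elsewhere to be listed at all, so part of the gap to all listed genes follows from how the lists were made. No gene of the 61 had a site in the promoter column, which 0.668% of all listed genes had. A single 5′ UTR site was the only mark in 52 of the 61 genes, 47 of them with ADAR-SUGP1 and 5 with GPATCH8-ADAR.

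The stop-codon column alone separated these genes from the others with a 5′ UTR site. In all, 66 genes held such a site, and none of the 66 had a coding or a 3′ UTR site with either fusion. Of all 1348 listed genes, 143 held a coding site and 261 a 3′ UTR site. A single 5′ UTR site was the only mark in 52 of the 61, which leaves no site for another region. Nothing is read from these zeros. The 5 genes just outside were set apart by 1 stop-codon site each. With ADAR-SUGP1, the nucleolar helicase DDX56, the immunophilin FKBP8 and the G protein-coupled receptor kinase GRK6 had 1 site each in the 5′ UTR. TTLL3, a tubulin glycylase, had 1 with GPATCH8-ADAR. DDX56 also had 2 promoter sites with GPATCH8-ADAR. Intronic sites with ADAR-SUGP1 numbered 2 in DDX56 and 1 each in GRK6 and TTLL3. Inside the rule stood genes such as AGAP6 with 2 sites and PABPC4 with 1, and no stop-codon site.

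Sites in more than 1 exonic region of a gene were also counted. Of the 143 genes with a coding site, 2 also had a 3′ UTR site (1.40%), against 261 of all 1348 listed genes. Stop-codon sites were present in 49 of these 143 genes (34.3%) and in 44 of the 261 with a 3′ UTR site (16.9%). They were present in 5 of the 66 genes with a 5′ UTR site (7.58%), against 160 of all 1348. These shares were not tested. The extent of the stop-codon window is not given, and whether a site in it was counted in a neighbouring region too cannot be told.

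**Figure D2:**
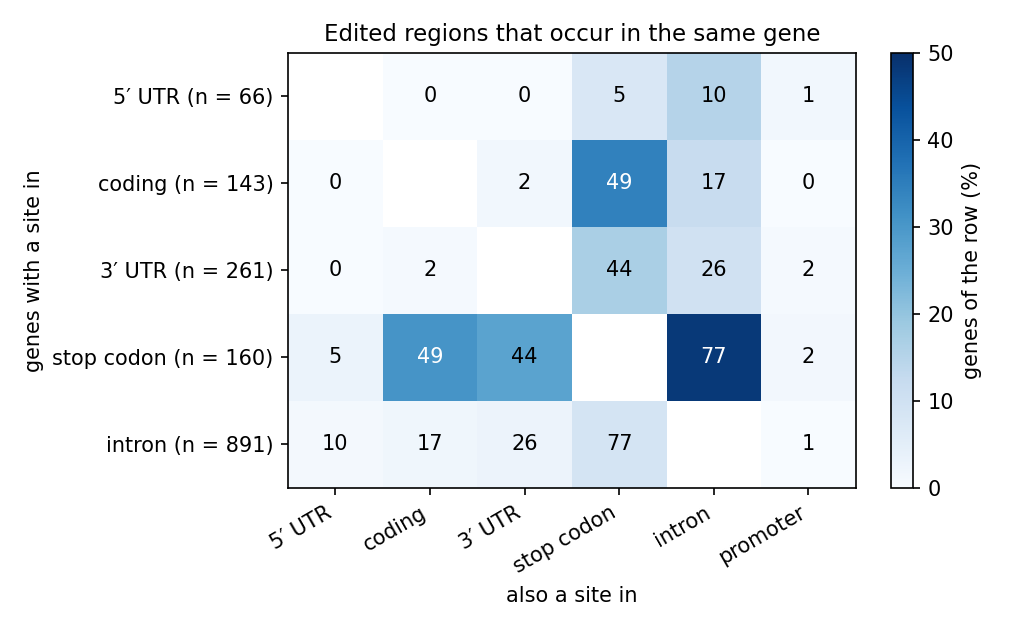
Genes with a site in the region of each row (either fusion, number of genes in brackets) that also held a site in the region of each column; the colour is the percentage of the row's genes and the printed number the count of genes. The 5′ UTR row has 0 genes with coding or 3′ UTR sites, 5 with stop-codon sites and 10 with intronic sites.

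Genes of translation and its control numbered 5, all with 1 site with ADAR-SUGP1. ATF4, the transcription factor of the integrated stress response, is a textbook case of control by upstream open reading frames in its 5′ UTR, and its site was in ENST00000337304.2. EIF4G2 (DAP5), an initiation factor that acts without the cap-binding protein, had its site in ENST00000531416.1. AKT1S1 (PRAS40) is an inhibitory partner of the kinase complex mTORC1, WIBG (current symbol PYM1) removes exon junction complexes from mRNA, and PABPC4 was described above. The functional groups were formed by hand with the genes known, so their sizes carry no test. Since ADAR-SUGP1 marked the 5′ UTR of 53 of the 61 genes, nothing is read from groups marked with that fusion alone.

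RNA processing numbered 6 genes, 5 with ADAR-SUGP1 and 1, NOSIP, with GPATCH8-ADAR. IK (RED) and PRKRIP1 are spliceosome proteins, as is NOSIP beside its ligase role, ZCCHC9 is a zinc knuckle protein, OSGEP is the catalytic subunit that makes the threonylcarbamoyl mark on transfer RNAs, and HNRNPUL2-BSCL2 is a read-through of 2 neighbouring genes, so its site may belong to either. Transcription and chromatin genes numbered 12. With ADAR-SUGP1 these were the forkhead factor FOXJ3, the interferon regulator IRF3, the zinc finger genes MZF1, ZIC2 and ZNF200, the nuclear receptors NR1D2 and NR2F1, the E protein TCF3 and MORC2, an ATPase of heterochromatin silencing. The other 3, with GPATCH8-ADAR, were MTA1, NFATC2IP and ZNF398.

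Membrane, transport and lysosome genes numbered 10, all with ADAR-SUGP1, with 17 sites, 10 of which lay in TMEM9, CERCAM and UNC119. The others included the lysosomal arylsulfatase ARSA, the SNARE STX10, the transporter family members MFSD11 and SLC35C2 (current symbol SLC35H1), TMEM19 and WDR83OS. Mitochondrial genes numbered 3, the assembly factors COA4 and NDUFAF3 and the chaperone TRAP1, all with ADAR-SUGP1. The cytoskeleton, centrosome and mitosis group held 9. CENPV, CNTROB, PSRC1, ZFYVE19, the Ran GTPase activator RANGAP1, the integrin-linked kinase ILK and FAM154B (current symbol SAXO2) were marked with ADAR-SUGP1, and CTTN and SSH2 with GPATCH8-ADAR. Cell surface receptors numbered 4, PILRB, LPHN3 (current symbol ADGRL3, an adhesion receptor of synapses) and the platelet glycoprotein GP1BB with ADAR-SUGP1, and ITGB2 with GPATCH8-ADAR.

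The remaining 12 were the ubiquitin ligase scaffold CUL3, the uracil-DNA glycosylase SMUG1, the phosphatase PTP4A3, the kinase-like TBCK, AGAP6, AHSA2 (current symbol AHSA2P), C2orf42, the calcium-binding CAPS, DIP2A, NUTM2D, SSFA2 (current symbol ITPRID2) and NBPF1. NBPF1 was marked with GPATCH8-ADAR and the other 11 with ADAR-SUGP1. NUTM2D, like AGAP6 and NBPF1, belongs to a family of near-identical copies.

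Gene lists built from patterns of gene symbols placed few of the 61 genes. They miss members whose symbols do not match, among them the spliceosome proteins IK, PRKRIP1 and NOSIP, the zinc finger genes MZF1 and ZIC2, the chromatin proteins MTA1 and MORC2 and the chaperones TRAP1 and UNC119. Translation factors had 2 of their 19 listed genes among them (EIF4G2 and PABPC4), zinc finger genes 2 of 46 (ZNF200 and ZNF398), solute carriers, channels and TMEM genes 2 of 44 (TMEM9 and TMEM19), and kinases and phosphatases by name 2 of 25 (PTP4A3 and PRKRIP1, which is not a kinase). There was 1 of 40 splicing genes by symbol (HNRNPUL2-BSCL2), 1 of 15 oxidative phosphorylation genes (NDUFAF3), 1 of 39 ubiquitin and proteasome genes (CUL3), 1 of 25 vesicle transport genes (STX10), and the 1 listed hematopoietic marker, ITGB2. None of the 61 matched the symbol patterns that took in the 28 cytosolic ribosomal proteins, 9 tRNA synthetases, 14 mitochondrial ribosome and import genes, 13 chromatin regulators, 12 RNA polymerase II and Mediator genes, 15 replication and cell cycle genes, 12 nucleoporins, 10 chaperones or 6 targets of mutant SF3B1 that were listed. With 4.90% of listed genes holding a 5′ UTR site, nothing is read from these zeros.

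The genes with 5′ UTR sites were often listed with a further transcript that had no site at all. With ADAR-SUGP1, 25 of the 54 listed genes (46.3%) had several transcripts in the table, against 19.6% of all 995, and the same 25 had a transcript with 0 in every region, against 12.9% of all 995. ATF4 shows the pattern, with 1 site in the 5′ UTR of ENST00000337304.2 and 0 in every region of ENST00000404241.2. TMEM9 had 4 sites in ENST00000367330.1 and 0 in ENST00000367334.5. With GPATCH8-ADAR, 5 of 9 genes (55.6%) had several transcripts, against 8.63% of 498, and 2 of 9 (22.2%), NBPF1 and NOSIP, had one without any site, against 6.83% of 498.

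This was set beside genes marked in 1 other region alone, judged within the list of each fusion. Only 5′ UTR, coding, 3′ UTR and intronic sites were considered, and genes with a stop-codon site with that fusion were left out. Promoter sites and sites with the other fusion were ignored, so PILRB counts as marked in the 5′ UTR alone with ADAR-SUGP1. With ADAR-SUGP1, a transcript without any site was listed for 24 of 51 genes marked in the 5′ UTR alone (47.1%), 14 of 76 marked in coding sequence alone (18.4%), 23 of 135 in the 3′ UTR alone (17.0%) and 10 of 547 in introns alone (1.83%). With GPATCH8-ADAR these numbers were 2 of 5 genes, 3 of 11 (27.3%), 11 of 89 (12.4%) and 3 of 356 (0.843%). The order of the regions was the same with both fusions, though with GPATCH8-ADAR the 5′ UTR class held only 5 genes. The tables do not say why a transcript with no counted site was listed, nor whether a 5′ UTR site of 1 transcript lies in an intron or coding exon of another. No test was made, because the rule and the listing share the same sites.

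**Figure D3:**
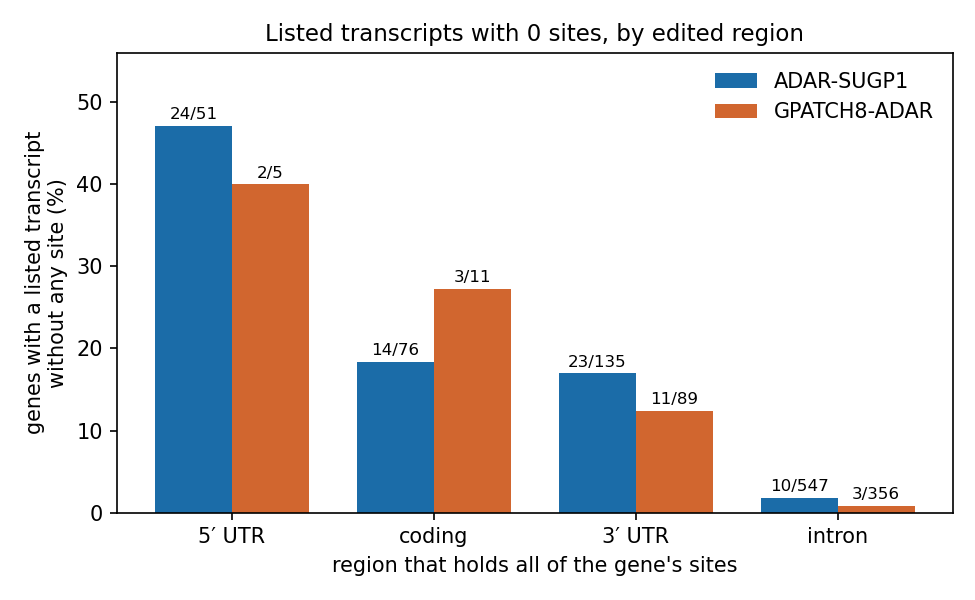
Percentage of genes (vertical axis) that had a listed transcript with 0 sites in every region, with ADAR-SUGP1 in blue and GPATCH8-ADAR in orange. Genes are those with sites of that fusion in only 1 of the 4 regions on the horizontal axis and no stop-codon site. Promoter sites and sites with the other fusion were ignored. Numbers above the bars are genes with such a transcript over all genes of the class; the 5′ UTR bars, 24 of 51 and 2 of 5, are the highest for each fusion.

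Some 5′ UTR sites lie in genes that overlap another gene, and use of strand in the site assignment is not given in the sources used here. By the gene spans of RefSeq assembly GRCh38.p14, 20 of the 61 genes (32.8%) overlapped another protein-coding gene, against 371 of the 1261 other listed genes with a match (29.4%). For 8 of the 61 the overlapping gene was itself listed, and for 7 of them it was on the list of the same fusion (11.5%), against 76 of 1261 others (6.03%). The 76 include the partners of the 7.

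The pairs on the same list were found with ADAR-SUGP1 except where named. MFSD11, with 1 site in the 5′ UTR, overlaps the splicing factor gene SRSF2, which had 1 site in its 3′ UTR. RANGAP1 overlaps ZC3H7B, and TRAP1 overlaps DNASE1, each partner with 1 intronic site. WDR83OS overlaps WDR83, which had 1 intronic and 1 stop-codon site. TBCK and WIBG overlap AIMP1 and DGKA, which were listed with 0 in every region. SSH2, marked with GPATCH8-ADAR, overlaps EFCAB5, also listed with 0 in every region with that fusion. A partner with 0 throughout was thus present for 3 of the 61 genes (4.92%) and for 12 of the 1261 others (0.952%). The difference rests on 3 genes and was not tested. The others also include genes with 0 in every region, such as AIMP1, DGKA and EFCAB5, whereas each of the 61 holds a site. Whether the site of a gene and that of its partner are 1 position cannot be told from the counts, and for these genes the transcript that carried the edit is uncertain.

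Base composition near the start of the genes was close to that of other listed genes. RefSeq windows of 250 bases before to 50 after a start were found for 47 of the 61 genes, with 69 starts, and for 1051 other listed genes, with 1446 starts. The median G + C share before the start was 65.6% (quartiles 56.4 to 71.2) in the 5′ UTR genes, against 65.2% (58.0 to 71.6) in other listed genes and 62.0% over all 22199 starts of protein-coding genes. In the first 50 transcribed bases the median share of adenosine was 14% (12 to 22), against 16% (10 to 20) in other listed genes and 18% over all starts. These ranges overlap almost wholly.

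Short motifs were searched in the same windows. The triplet TAG, the sense-strand context in which fly ADAR edits readily, was present in the first 50 bases of 20 of 69 starts (29.0%), against 27.8% in other listed genes and 27.1% of all starts. In the 250 bases before the start and on either strand, TATAAA was present at 4 starts (5.80%), against 6.22% in other listed genes and 9.0% of all starts. CCAAT was present at 18 (26.1%), against 34.6% and 32.7% in the same order, and GGGCGG, which can overlap other GC-rich motifs, at 47 (68.1%), against 66.8% and 53.7%. Several RefSeq starts were annotated for 19 of the 47 genes (40.4%), among them TMEM9, CERCAM, UNC119 and AGAP6, against 275 of 1051 other listed genes (26.2%) and 25.6% of all protein-coding genes. These shares describe the annotation, and no test was made of them.

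**Figure D4:**
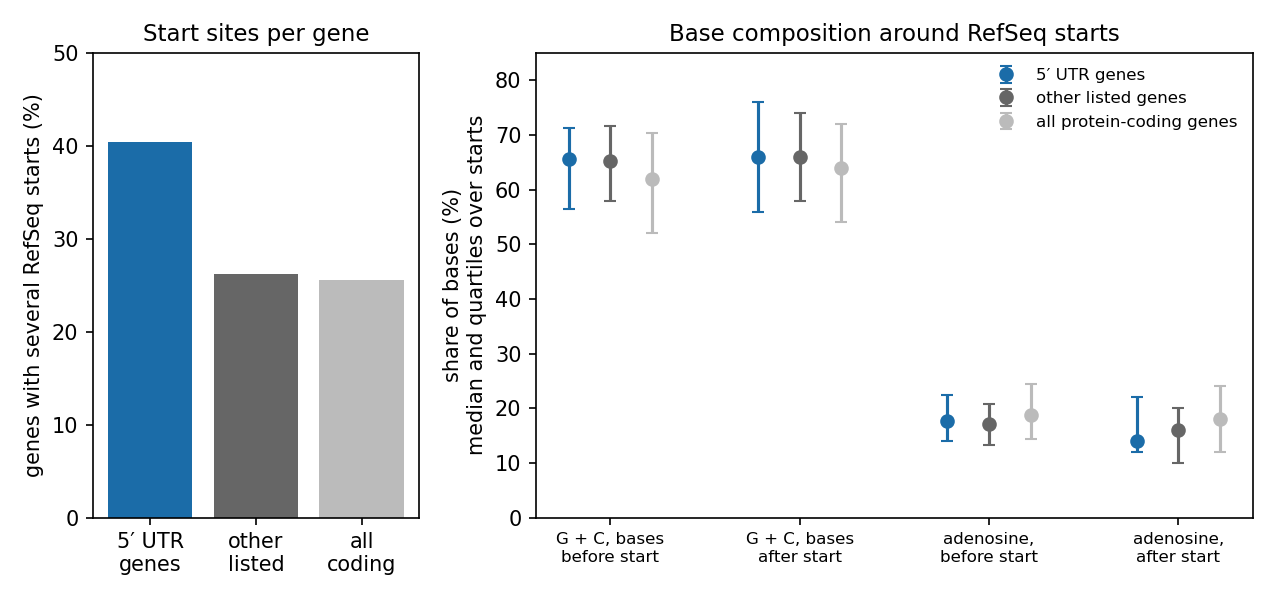
Left, percentage of genes with several annotated RefSeq starts in the 5′ UTR genes (40.4%), other listed genes (26.2%) and all protein-coding genes (25.6%). Right, share of G + C and of adenosine in the 250 bases before and the 50 bases after each start (points are medians and bars quartiles over starts, same colours), where the 5′ UTR genes and the other listed genes lie close together.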

How the data were processed

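The authors deposited 1 table per fusion with counts of editing sites, not reads, per Ensembl transcript and region, per the file headers. The submitters' processing notes name Trimmomatic, STAR and hg19; the site caller, its thresholds and the annotation, as well as strand handling, were not given in the sources used here. The labels' protocols give 60 to 80M paired reads of 100 bp for each of the 9 samples, as 1 approximate range, so the depth behind a site is unknown and no interval was made. Per the series' design text, background events were subtracted and events of both replicates kept, which favours transcripts read deeply in both libraries.

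Counts of protein-coding rows (1216 with ADAR-SUGP1, 544 with GPATCH8-ADAR, after 572 blank rows were skipped) were summed per gene symbol with pandas 2.3.3 in Python 3.11.15. Genes, lists and groupings were chosen with earlier results of these data known. All genes meeting the rule are named except 1, and that gene and 1 just outside the rule are not reported here; 55 symbols were current in RefSeq GRCh38.p14 and 6 matched as synonyms. That table served for names and overlaps only, and start windows come from RefSeq of the same build, not hg19. Motif searches and gene overlaps were added after the tables were seen. No test was run: each fusion has 1 pooled count, without replicate or control values. The selection was tested on simulated tables.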

Additional observations from a re-analysis of the deposited data

How the results depend on the processing

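The number of genes was 61, also when all transcript types were kept or other exonic sites were judged within 1 list. The highest transcript in place of the sum must return the same 61 genes, so it is no check. The number was 66 with stop-codon sites allowed, 55 without the genes with intronic sites, and 64 with transcripts as the unit. It was 31 among genes with 1 listed transcript and 4 with a minimum of 2 sites. The number with an intronic site, 6, was 10 with stop-codon sites allowed, and 1 each with 1 listed transcript, a minimum of 2 sites, or transcripts as the unit. The number on both lists, 2, was 4 with stop-codon sites allowed and 0 with 1 listed transcript, a minimum of 2 sites, no intronic site, or transcripts as the unit. Settings that leave out or admit genes change these numbers by their construction. No paired analysis was possible because both replicates enter each deposited count together. Read depth per site is unknown, so a gene without a 5′ UTR site may have been too thinly read for one to be kept.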

Other observations

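The 61 genes were spread over 20 chromosomes. Chromosome 19 held 9 of them (14.8%), against 8.02% of all listed genes with a match in RefSeq, and chromosome 1 held 5 (8.20%), against 14.3%. Chromosome 22 held 5 (8.20%), against 4.08%. Chromosome 6, with 57 listed genes (4.31%), held 0. These chromosomes were picked for their large differences, on small counts, after the tables were seen, and the differences were not tested.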
